A study of Mus musculus with 5 samples.

Results

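The cells described here are collagen-producing spinal cord cells that carried transcripts of at least 2 of the genes Lsp1, Npy1r, Dapk1 and Tmem150a. Nearly all of them came from mice with experimental autoimmune encephalomyelitis (EAE), an induced autoimmune disease of the central nervous system. A barcode, the tag of 1 droplet, was a member if it held at least 3 unique molecular identifiers (UMIs, each a counted RNA molecule) over those 4 genes, from at least 2 of them. Its sum also had to exceed the sums over 3 rival sets: Lcn2, Saa3, Cxcl5 and Draxin, then Tnc, Cxcl9, Col7a1 and Cthrc1, then Igfbp3, Slc13a3, Wnt4 and Ranbp3l. At least 2 UMIs over the matrix genes Col1a1, Col1a2, Col3a1 and Dcn were required, and barcodes that met this last condition are called collagen-positive. The rule picked 599 of 4678 barcodes that passed the filters, 578 of them in EAE and 21 in Healthy cords. Because the rule reads the expression of these genes, their levels in members are given as a description and without a test.

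Every library held Col1a1-GFP positive cells, sorted as single cells from dissociated spinal cord of Col1a1GFP mice on the C57/BL6 background, in which green fluorescent protein marks cells that use the Col1a1 promoter. The state compared was EAE, with 2 libraries called EAE 1 and EAE 2, against Healthy, with 3 libraries called Healthy 1, Healthy 2 and Healthy 3. EAE 1, Healthy 1 and Healthy 2 belong to a first batch of tables, and EAE 2 and Healthy 3 to a second. How many animals went into a library, their age and the day of disease were not in the labels, so the spread between libraries may be technical.

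Fibroblasts of the cord lie mainly in the meninges and around blood vessels, where they lay down collagens and other matrix, and in inflamed cord they can take on scar-forming and chemokine-producing states. Lsp1 encodes an actin-binding protein best known from leukocytes. Npy1r encodes the Y1 receptor for neuropeptide Y, a transmitter released by sympathetic nerve fibres along vessels, Dapk1 a calmodulin-regulated kinase linked to cell death and autophagy, and Tmem150a a membrane protein that works with a lipid kinase at the plasma membrane. C4b, the marker that was not part of the rule, encodes complement component C4.

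In the GRCm38 build (GENCODE annotation) Lsp1 lies on chromosome 7 at 142460809 to 142494867, plus strand, close to Igf2 at 142650766 to 142666816, minus strand. Npy1r is on chromosome 8 at 66697192 to 66706792, Dapk1 on chromosome 13 at 60601947 to 60763191, and Tmem150a on chromosome 6 at 72355447 to 72359762, all on the plus strand. C4b is on chromosome 17 at 34728380 to 34743882, minus strand, and its near-identical neighbour C4a lies at 34809092 to 34823464, so the split of reads between both genes is uncertain. RefSeq promoter windows (GRCm38.p6) matched 3 of these 5 marker genes, Npy1r, Dapk1 and Tmem150a. The bases before the start of Tmem150a are shown because the gene is part of the rule, and those of Hoxd10 and Cxcl14 because these genes, outside the rule, stood among the highest in members in both EAE libraries. Only bases outside annotated exons are printed, at chr6:72355233-72355446 (plus strand), chr2:74691641-74691890 (plus strand) and chr13:56296552-56296801 (minus strand), 5′ to 3′, with motif matches in capitals.
Tmem150a: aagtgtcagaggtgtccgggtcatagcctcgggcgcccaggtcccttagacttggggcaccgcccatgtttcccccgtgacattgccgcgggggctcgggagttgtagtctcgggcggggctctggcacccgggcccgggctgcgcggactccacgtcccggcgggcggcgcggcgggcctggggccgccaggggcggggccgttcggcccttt
Hoxd10: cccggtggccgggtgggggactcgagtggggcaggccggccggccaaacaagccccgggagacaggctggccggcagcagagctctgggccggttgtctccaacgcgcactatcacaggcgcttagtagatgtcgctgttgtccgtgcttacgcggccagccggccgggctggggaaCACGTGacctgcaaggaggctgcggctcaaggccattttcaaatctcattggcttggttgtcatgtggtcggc
Cxcl14: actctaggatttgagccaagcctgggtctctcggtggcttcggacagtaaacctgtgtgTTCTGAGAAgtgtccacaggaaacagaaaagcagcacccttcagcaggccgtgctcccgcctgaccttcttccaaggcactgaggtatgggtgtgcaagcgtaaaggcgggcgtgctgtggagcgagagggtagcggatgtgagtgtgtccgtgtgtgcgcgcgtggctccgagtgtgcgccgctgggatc
The motifs searched, on both strands, were TTCNNNGAA (STAT), the NF-kappaB site, TGANTCA (AP-1), the E-box CACGTG, and the promoter element TATAAA. In the 250 bases before the start, Hoxd10 held CACGTG, found in 6.02% of 32851 windows of that length, and Cxcl14 held a TTCNNNGAA match, found in 7.02%. Npy1r held TGANTCA, found in 6.75% of windows, and Dapk1 and Tmem150a held no match. These letters are a description of the sequence and say nothing about binding.

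The tables held 7205 barcodes, with 7317084 to 10775024 UMIs in EAE libraries and 1588693 to 1990869 in Healthy ones. The first-batch tables share cell barcodes: 1239 barcodes of EAE 1 were also in Healthy 1 and 683 in Healthy 2. A shared barcode was kept only where its UMI total was highest. Of the barcodes that passed the gene and mitochondrial limits, this left 724 of 2265 in Healthy 1 and 429 of 1112 in Healthy 2. In EAE 1 it left 1913 of 1915, so the step fell almost wholly on Healthy libraries. Of the 276 members in EAE 1, 197 had a barcode that was also in the Healthy 1 table, where the median copy held 474 UMIs against 5010 in EAE 1. Shared barcodes made up 71.4% of members and 69.5% of the other collagen-positive barcodes of EAE 1, and EAE 2 shared a single barcode with Healthy 3 and no member. All 7 Healthy 2 members carried a barcode also present in another table, as did 293 of the 405 other collagen-positive barcodes of Healthy 2 (72.3%). Doublets were not removed by a caller.

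Members made up a far larger share of collagen-positive barcodes in EAE than in Healthy cords. They were 276 of 1746 in EAE 1 (15.8%, exact 95% interval 14.1 to 17.6) and 302 of 1209 in EAE 2 (24.98%, 22.6 to 27.5), against 6 of 680 in Healthy 1 (0.882%, 0.324 to 1.91), 7 of 412 in Healthy 2 (1.70%, 0.686 to 3.47) and 8 of 369 in Healthy 3 (2.17%, 0.941 to 4.23). The lowest EAE share was thus above the highest Healthy share, and the intervals, which cover counting error only, did not meet. The mean was 20.4% ± 6.49 in EAE (SD, n = 2) and 1.58% ± 0.651 in Healthy (SD, n = 3). The difference was 14.5 percentage points within the first batch and 22.8 within the second. It is given with no test, since the genes of the rule were chosen with their levels in EAE known.

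Depth differed between the states and moves with these shares. The median collagen-positive barcode outside the members held 4656 and 4758 UMIs in EAE 1 and EAE 2, against 1222, 3180 and 4263 in Healthy 1, Healthy 2 and Healthy 3. With every barcode thinned to 2000 UMIs before the rule was applied, members were 10.5% and 13.5% in EAE 1 and EAE 2, against 0.562%, 1.00% and 1.63% in the Healthy libraries. Thinning left out 57 and 140 shallower collagen-positive barcodes in EAE, and 502, 104 and 58 in Healthy. With shared barcodes kept in every table the Healthy 1 and Healthy 2 shares were 1.49% and 2.34%, and EAE 1 stayed at 15.8%.

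**Figure D1:**
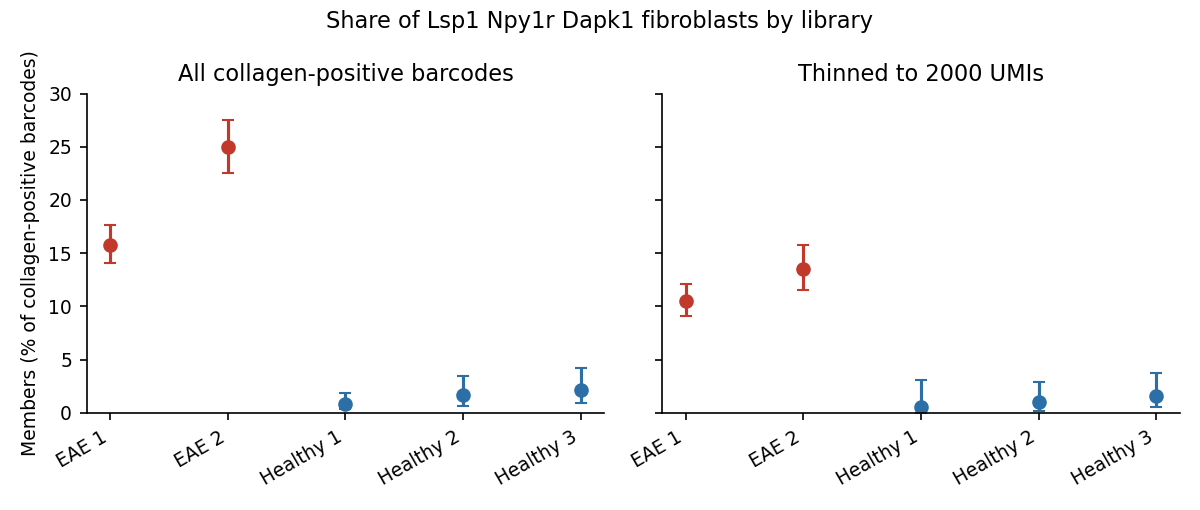
Share of members among collagen-positive barcodes, in percent, for the 2 EAE and 3 Healthy libraries, with every barcode as counted (left) and after thinning to 2000 UMIs (right). Points are libraries and bars are exact 95% binomial intervals. Both EAE libraries sit above all 3 Healthy ones, at 10.5% or more in either panel.

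Most members were well past the threshold of 3. The median sum over the 4 genes was 8 UMIs in EAE 1 and 9.5 in EAE 2, with maxima of 91 and 62, whereas no Healthy member exceeded 8. Just inside the threshold, at exactly 3 UMIs, stood 25 members in EAE 1 and 21 in EAE 2. Just outside it, 218 and 113 collagen-positive barcodes had 2 UMIs, and a further 101 and 111 had 3 or more UMIs that all came from 1 gene. Another 435 barcodes in EAE 1 and 222 in EAE 2 met the minimum and were kept out because a rival set reached the same sum or more. Members were not free of rival genes: 261 of 276 in EAE 1 and 270 of 302 in EAE 2 held UMIs of a rival set. Wnt4 was seen in 64.9% and 63.9% of members, and Saa3 in 54.0% and 23.8%. Members with UMIs from 2, 3 and 4 of the genes were 125, 116 and 35 in EAE 1, and 132, 120 and 50 in EAE 2.

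Lsp1 supplied most of the signal. In CPM, the UMIs of a gene scaled to a fixed total over the UMIs summed in a group, a scale that is not corrected for gene length and that compares groups within a gene, Lsp1 stood at 1588 in EAE 1 members and 1254 in EAE 2 members, against 235 and 310 in the other collagen-positive barcodes of EAE 1 and EAE 2. Among non-members of Healthy 1, Healthy 2 and Healthy 3 it was 46.5, 37.1 and 30.1 CPM. At least 1 Lsp1 UMI was seen in 90.2% and 96.4% of members, and its highest count was 74 in EAE 1 and 50 in EAE 2.

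Npy1r was the most uneven of the 4 genes between the EAE libraries. It reached 542 CPM in EAE 1 members and 265 CPM in EAE 2 members, against 131 and 88.2 CPM in the others of EAE 1 and EAE 2. In Healthy non-members it was 21.2, 30.3 and 37.3 CPM, so the Healthy libraries sat below both EAE groups. Npy1r was detected in 79.7% of EAE 1 members and 68.5% of EAE 2 members.

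Dapk1 and Tmem150a were lower in level and each was detected in 47.0% to 60.9% of members. Dapk1 was 157 and 122 CPM in members of EAE 1 and EAE 2, against 59.8 and 36.4 CPM in the others of EAE 1 and EAE 2. Tmem150a was 193 and 240 CPM in members, against 59.4 and 46.6 CPM in the others. In Healthy non-members Dapk1 was 15.7 to 18.9 CPM, below both EAE groups, while Tmem150a was 41.8 to 63.7 CPM and overlapped the EAE non-members. The pair seen most often in the same member was Lsp1 with Npy1r, in 195 of 276 members of EAE 1 and 197 of 302 of EAE 2, and the rarest was Dapk1 with Tmem150a, in 52 and 74.

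Lsp1 is a leukocyte gene, so leukocyte markers are set beside these levels. Barcodes with 10 or more leukocyte UMIs that were not collagen-positive, 107 in EAE 1 and 18 in EAE 2, held Lsp1 at 652 and 675 CPM, below the members and above the other fibroblasts. Npy1r, Dapk1 and Tmem150a were each seen in 1 of those 107 barcodes (0.935%) at a median depth of 3153 UMIs, and in 0 of the 18, which allows a share of up to 16.7% at a median of 2367 UMIs. Members had a median of 4394 and 6090 UMIs in EAE 1 and EAE 2.

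Ptprc, which encodes the pan-leukocyte protein CD45, was found in 4 of 276 and 3 of 302 members. Over 11 myeloid markers the members held 82.9 and 86.9 CPM, against 36.1 and 32.4 CPM in the others of EAE 1 and EAE 2. The list was thus higher in members. Of its markers only Itgam had 0 UMIs in members of both libraries, and Itgam also had 0 UMIs in the others of EAE 2. At least 2 leukocyte UMIs were present in 6.52% and 7.95% of members, against 4.35% and 3.09% of the others. Of the 17 genes called higher in members below, 15 were also called without all such barcodes, and Glrb and Sdk1 were not.

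Since the rule requires matrix transcripts in members and others alike, fibroblast markers are no independent check of the label. Their summed level was 24383 and 25505 CPM in members, against 29643 and 27277 CPM in the others of EAE 1 and EAE 2. T and NK lymphocyte markers summed to 31.5 and 24.5 CPM in members, against 22.2 and 8.30 CPM in the others of EAE 1 and EAE 2, so they too were higher in members. Melanocyte, B cell and neuronal markers summed to at most 10.1 CPM in members. For B cell markers the sums were 1.54 and 4.26 CPM in members, against 8.71 and 1.89 CPM in the others. Schwann cell markers summed to 139 and 144 CPM in members, against 175 and 160 CPM in the others, with Sox10 at 0 in members of both libraries. Astrocyte markers summed to 780 and 778 CPM in members, against 684 and 625 CPM, endothelial markers to 298 and 298 CPM, against 253 and 260 CPM, and arachnoid barrier markers to 161 and 174 CPM, against 131 and 120 CPM. The last 3 lists were somewhat higher in members, and their part in the results was not tested. Markers of pericytes and smooth muscle summed to 910 and 1305 CPM in members, against 879 and 1144 CPM in the others.

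Each gene of the rule was also read in barcodes picked without it, from the remaining 3 genes, after thinning to 2000 UMIs. Lsp1 was then present in 59.6% of 57 picked barcodes in EAE 1 and 67.7% of 31 in EAE 2, against 35.5% and 43.4% of the other collagen-positive barcodes. Npy1r was present in 50% of 76 and 32.3% of 93 picked barcodes, against 23.9% and 17.2%. Dapk1 was present in 22.1% of 145 and 19.0% of 116, against 11.97% and 10.5%, and Tmem150a in 22.96% of 135 and 28.1% of 96, against 12.99% and 14.8%. These shares describe genes that were chosen as a set with earlier results known, and the other barcodes include the classes that the rule keeps out of those picked.

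C4b, which the rule did not use, was 419 and 298 CPM in members of EAE 1 and EAE 2, against 219 and 146 CPM in the others of EAE 1 and EAE 2. After thinning, 59.9% and 45.1% of members held a C4b UMI, against 31.6% and 23.8% of the others. It did not single members out, since barcodes picked by the Igfbp3 set in the same manner held more, 457 and 527 CPM. The Lcn2 set held 234 and 173 CPM, and the Tnc set 85.3 and 30.2 CPM.

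**Figure D2:**
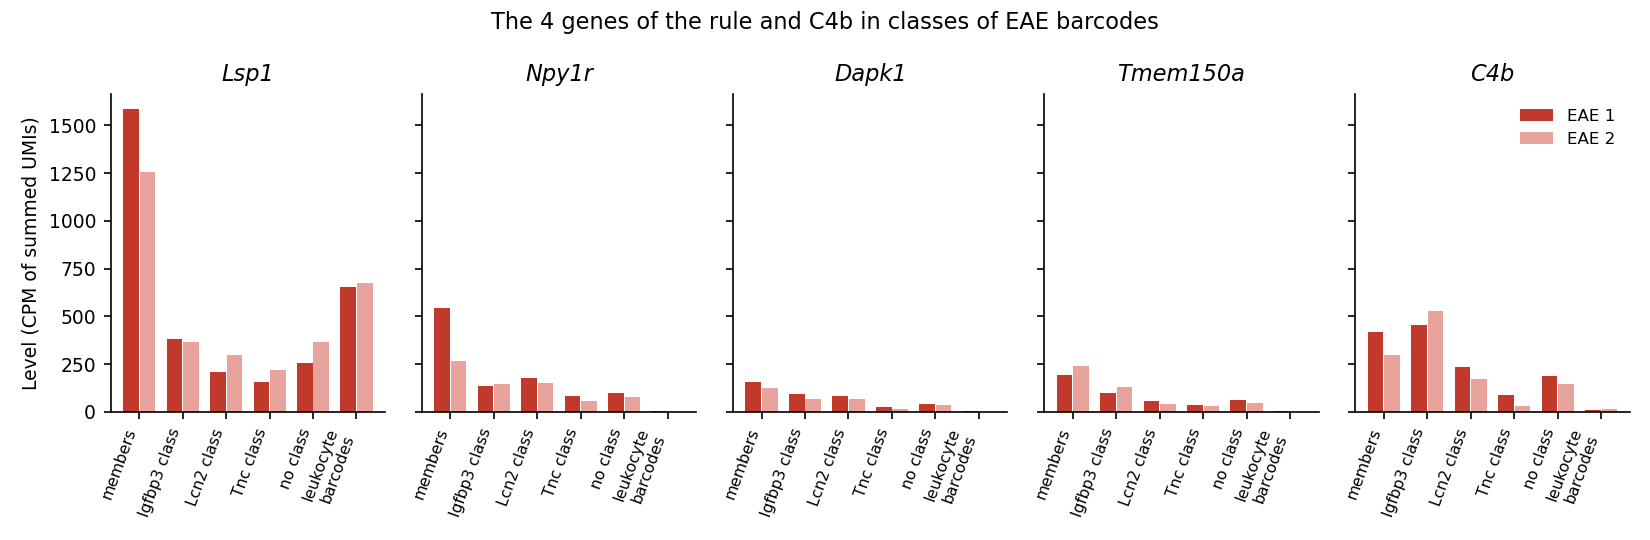
Level of the 4 genes of the rule and of C4b, in CPM of summed UMIs, in 6 classes of EAE barcodes, with EAE 1 in dark and EAE 2 in light bars. Lsp1 is highest in members (1588 and 1254 CPM) and next in leukocyte barcodes (652 and 675 CPM), while C4b is highest in the Igfbp3 class (457 and 527 CPM).

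Beyond the rule, members stood apart by a small set of genes, among them elastic matrix genes, the ephrin receptor Epha4 and the posterior Hox genes Hoxa11, Hoxd10 and Hoxd11, of which Hoxa11 and Hoxd11 were not called against barcodes of none of the classes. Members were compared with the other collagen-positive barcodes of the same EAE library by log2 of the CPM ratio, with 5 CPM added to both, over 5970 genes of at least 20 CPM. A gene was called higher where members were at least 2-fold above the others in both libraries, and lower where at least 2-fold below in both. By this rule 17 genes were higher (0.285%) and 29 were lower (0.486%). Without the 5% of barcodes with most UMIs, which could hold doublets, 10 genes were higher, and 1500015O10Rik, Glrb, Hoxa11, Mfap4, Nkain4, Sdk1 and Svil no longer reached 2-fold in both libraries. After thinning to 2000 UMIs 11 of the 17 stayed called, and the same genes apart from Hoxa11 were lost. The comparison has no test, as both groups come from the same 2 libraries and were split by expression.

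Elastic fibre genes were among those called higher. Eln, which encodes elastin, was 1388 and 451 CPM in members of EAE 1 and EAE 2, against 393 and 174 CPM in the others of EAE 1 and EAE 2, a log2 ratio of 1.81 and 1.35. Mfap4, which encodes a glycoprotein of microfibrils, was 637 and 768 CPM in members, against 248 and 350 CPM in the others. Members were above the others in both libraries for each gene, and Eln UMIs were found in 65.9% and 60.6% of members. A few barcodes weighed heavily for Eln: the 4 highest held 24.1% and 23.05% of its UMIs in members of EAE 1 and EAE 2. Col8a2, a chain of the network collagen VIII, was 68.3 and 98.1 CPM in members, against 24.8 and 29.6 CPM in the others.

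Of 31 measured matrix glycoproteins and proteoglycans only Eln and Mfap4 were called higher and Spp1 and Tgfbi lower. The list's median log2 ratio was -0.04 and 0.05, against 0.01 and 0.03 over all genes measured. Fbln1, a fibulin of elastic tissue, was 986 and 1020 CPM in members, against 539 and 600 CPM in the others, short of 2-fold. Fbn1, the fibrillin of the microfibril backbone, was 357 and 264 CPM in members, against 435 and 346 CPM, so the elastic genes did not all go the same way. None of 5 measured fibrillar collagen genes outside the rule and none of 16 basement membrane genes was called. Over all genes 0.285% were called higher and 0.486% lower, so a count of 0 in lists of this size is no result about them.

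Secreted factors were among the higher genes. Cxcl14, a chemokine, was 223 and 137 CPM in members of EAE 1 and EAE 2, against 77.1 and 45.4 CPM in the others of EAE 1 and EAE 2, and Healthy non-members held 183, 116 and 48.4 CPM. Igf2, a growth factor, was 579 and 366 CPM in members, against 184 and 147 CPM in the others, and 224, 155 and 390 CPM in Healthy non-members. For Igf2 the members of EAE 2 thus lay within the range of Healthy libraries, and for Cxcl14 too. Cxcl14 was the only chemokine called higher of 14 measured outside the rule, beside 0.285% called higher over all genes. Ccl5 and Ccl11 were called lower, though Ccl5 was not called after thinning and turned to a mean log2 ratio of 0.26 without barcodes with cell cycle UMIs. Igf2 was not called higher in that last setting. Below 0 in both libraries were 9 of the 14 chemokines, beside 1839 of all 5970 genes.

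None of 16 measured adhesion and surface molecules was called higher and Cd44 was called lower, beside 0.285% higher and 0.486% lower over all genes. The count of 0 is no result about a list of this size. Outside that list, Epha4, a receptor for ephrins that guides axons and cell contacts, was 53.0 and 67.2 CPM in members, against 16.3 and 23.4 CPM in the others of EAE 1 and EAE 2. Epha7, its relative, was 147 and 167 CPM in members, against 73.1 and 79.4 CPM, with log2 ratios of 0.96 and 1.03. Sdk1, a homophilic adhesion molecule, was 55.3 and 65.6 CPM in members, against 24.96 and 22.1 CPM, and stood at -0.05 and 0.12 on the log2 scale against the Igfbp3 set. Svil, which links membrane and actin, was 229 and 304 CPM in members, against 111 and 137 CPM. The rest of the highest 15 by the smaller of both ratios were 1500015O10Rik, Nkain4, Hoxa10, C4b, Vamp5 and Cmbl, all above 0.88 on the log2 scale in both libraries.

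**Figure D3:**
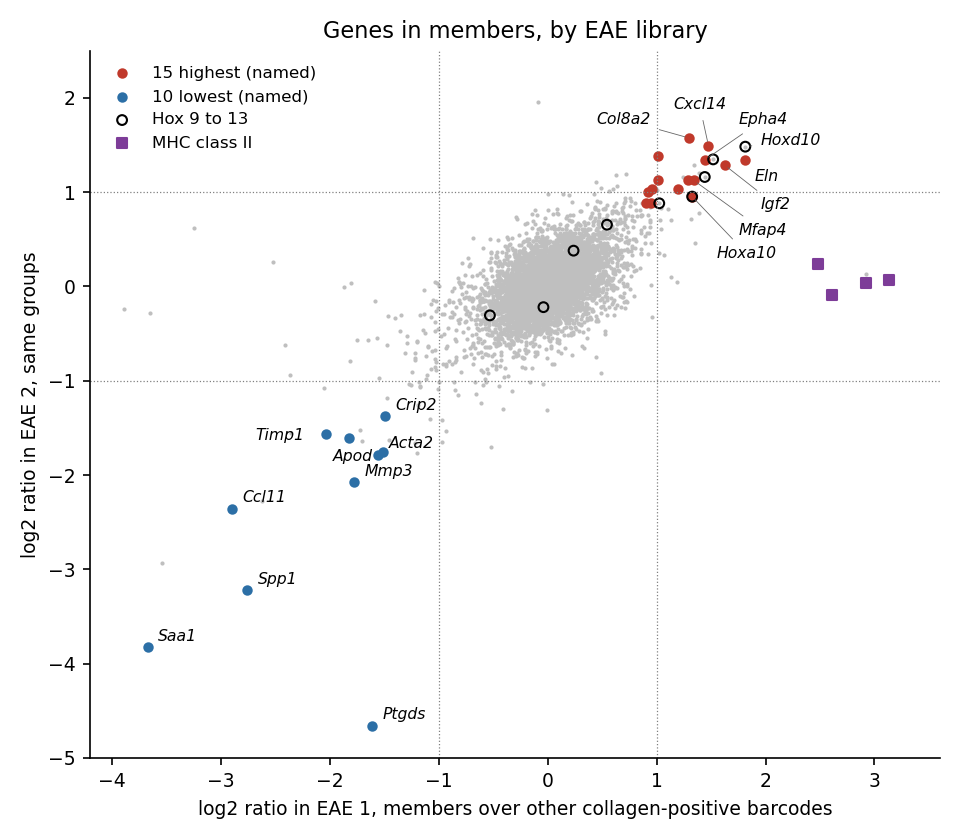
Log2 ratio of members over other collagen-positive barcodes for 5970 genes outside the rule, EAE 1 on the horizontal and EAE 2 on the vertical axis, with 2-fold marked by dotted lines. Named genes have the same sign in both libraries, with Ptgds far lower in EAE 2, and open circles are the 9 measured Hox genes of paralogues 9 to 13. The 4 MHC class II genes are high in EAE 1 alone, where 4 member barcodes held 920 of the 988 class II UMIs.

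Genes picked in 1 library were read in the other. Of the 30 genes with the highest ratio in EAE 1, 14 were at least 2-fold higher in EAE 2, where 27 of all 5970 genes were (0.452%). Of the 30 highest in EAE 2, 17 were at least 2-fold higher in EAE 1, where 36 genes were (0.603%). For the 30 lowest, the numbers were 16 of those picked in EAE 1 (background 0.787%) and 21 of those picked in EAE 2 (1.44%). At the level of single barcodes thinned to 2000 UMIs, the median EAE 2 member held UMIs of 4 of the genes picked in EAE 1, against 2 for other barcodes. No EAE 2 member lacked all of them, against 144 of 919 others.

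Several posterior Hox genes were among the genes higher in members. Hox genes encode transcription factors that record position along the body axis, with paralogues 9 to 13 used in the caudal trunk, and this grouping was made after their values had been seen. Of 16 genes of paralogues 9 to 13, 9 were measured. Hoxa11, Hoxd10 and Hoxd11 were called higher, beside 0.285% called higher over all genes. Above 0 in both libraries were 7 of the 9, beside 2133 of all 5970 genes. The median log2 ratio of the 9 was 1.02 in EAE 1 and 0.88 in EAE 2, against 0.01 and 0.03 over all genes. The measured genes of paralogues 4 to 8 had medians of -0.02 and 0.24, and those of paralogues 1 to 3 had -0.27 and -0.24.

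Hoxd10 was 53.7 and 46.9 CPM in members of EAE 1 and EAE 2, against 11.7 and 13.6 CPM in the others of EAE 1 and EAE 2, and 8.50 to 16.2 CPM in Healthy non-members. Members lay above all 5 groups of non-members, with UMIs in 19.9% and 22.5% of members. Hoxa10 was 76.0 and 56.5 CPM in members, against 27.3 and 26.8 CPM in the others, and 35.4, 48.4 and 40.5 CPM in Healthy non-members. Hoxb9 and Hoxc9 went the other way, with log2 ratios of -0.53 and -0.31 for Hoxb9 and -0.04 and -0.22 for Hoxc9. Among Hox genes of at least 20 CPM, those called higher were of the HoxA and HoxD clusters. Hoxb5os, a transcript of the HoxB cluster, was also called higher. Hoxc11, of the HoxC cluster, was at least 2-fold higher in both libraries too, but lay below 20 CPM. Higher levels in members were thus not confined to HoxA and HoxD. Hoxd10 lies within a longer annotated transcript locus, Gm28309, so the split of reads there is uncertain.

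**Figure D4:**
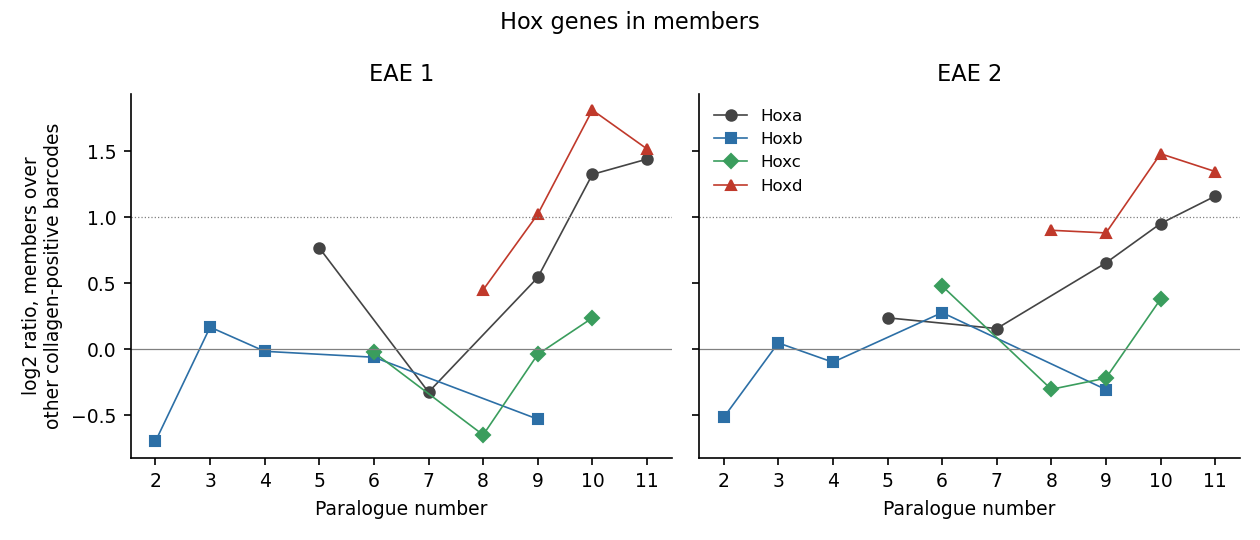
Log2 ratio of members over other collagen-positive barcodes for measured Hox genes, by paralogue number, in EAE 1 (left) and EAE 2 (right), with a line for each cluster. Hoxa and Hoxd genes of paralogues 10 and 11 lie at 0.95 or more in both libraries, and Hoxb9 and Hoxc9 lie below 0.

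Summed over paralogues 9 to 13, members held 431 and 437 CPM in EAE 1 and EAE 2, against 251 and 283 CPM in the others of EAE 1 and EAE 2. Healthy non-members held 289, 336 and 302 CPM, between both EAE groups. The barcodes of the Lcn2 set held 229 and 270 CPM, those of the Tnc set 242 and 211, and those of the Igfbp3 set 252 and 356. Paralogues 4 to 8 summed to 316 and 349 CPM in members, against 359 and 339 CPM in the others.

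The lowest genes in members were of mixed kinds. Saa1, an acute-phase protein, was 23.03 and 4.80 CPM in members of EAE 1 and EAE 2, against 352 and 134 CPM in the others of EAE 1 and EAE 2. Spp1, which encodes osteopontin, was 159 and 84.8 CPM in members, against 1105 and 833 CPM. Ccl11, the eosinophil chemokine eotaxin, was 26.1 and 40.5 CPM in members, against 227 and 228 CPM, and Apod, a lipid carrier abundant in meningeal fibroblasts, was 4737 and 7450 CPM, against 16769 and 22668 CPM.

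Acta2, the smooth muscle actin, was 95.2 and 75.7 CPM in members, against 290 and 273 CPM in the others. It was the 1 gene called lower of 11 measured contractile genes, beside 0.486% called lower over all genes. Timp1, a protease inhibitor, was 504 and 278 CPM in members, against 2078 and 829 CPM. Mmp3 and Crip2 were also among the lowest. Ptgds, which makes prostaglandin D2, was 56.0 and 27.7 CPM in members, against 181 and 821 CPM in the others. The rule keeps out barcodes with more UMIs of the Lcn2, Tnc or Igfbp3 sets, so genes that go with those sets are lower in members in part by construction.

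Against barcodes of none of the classes, 14 genes were called higher (0.231% of 6058) and 59 lower (0.974%), and 7 and 19 of them were shared with the calls against all others. Eln then had a log2 ratio of 2.09 and 1.49, Mfap4 1.60 and 1.16, Hoxd10 1.24 and 1.13, and Col8a2 1.36 and 1.24. Hoxa11 (1.01 and 0.68) and Hoxd11 (0.80 and 0.73) were no longer called, and the median of paralogues 9 to 13 was 0.80 and 0.41. Saa1 (-3.07 and -3.60), Apod (-2.95 and -2.47), Ccl11 (-3.44 and -2.43) and Spp1 (-2.49 and -2.67) stayed low. Timp1 no longer reached 2-fold, at -0.58 and -0.35, and Mmp3 differed in sign between the libraries, at 0.19 and -1.58. Cxcl14 stood at 1.22 and 0.83 and Igf2 at 1.52 and 0.94.

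The most similar class depended on the gene. Against the Igfbp3 set 37 genes were called higher (0.616%) and 55 lower (0.915%), against the Lcn2 set 31 (0.525%) and 44 (0.745%), and against the Tnc set 212 (3.6%) and 92 (1.56%), so the count was highest against the Tnc barcodes. Hoxd10 was above all 3 sets, with log2 ratios of 1.67 and 2.12 against the Igfbp3 set, 2.23 and 2.18 against the Lcn2 set, and 2.52 and 1.61 against the Tnc set. Eln was 1.37 and 0.40 against the Igfbp3 set, so in EAE 2 the difference there was small. Igf2 was 0.73 and 0.01 and Svil 0.09 and 0.20 against that set, close to equal in EAE 2. Epha4 was 0.35 and 1.14 there. Nkain4 (-0.29 and -0.21) and Vamp5 (-0.10 and -0.37) were below 0 in both libraries, and Cmbl differed in sign (0.20 and -0.54). Cxcl14 (2.48 and 1.29) and 1500015O10Rik (2.23 and 1.53) stayed above the Igfbp3 set. Ptgds was at -3.75 and -8.13 against the Igfbp3 set, far lower in members, and Apod at 0.36 and -0.09.

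Several lists of genes known from inflamed stroma held no called gene. None of 21 measured interferon-induced genes, 16 MHC class I genes, 17 cytokine genes and 11 complement genes was called, with list medians between -0.32 and 0.31, beside 0.285% called higher and 0.486% lower over all genes. A count of 0 in lists of this size is therefore no result about them. Of the interferon-induced genes, 0 were above 0 and 12 below 0 in both libraries. Over all 5970 genes measured, 2133 were above 0 and 1839 below 0 in both. Of 15 meningeal transcription factors 10 were above 0 in both libraries and none was called, with Zic1 at 366 and 408 CPM in members, against 239 and 268 CPM in the others of EAE 1 and EAE 2. Of 16 immediate early and heat shock genes 12 were above 0 in both libraries, with list medians of 0.22 and 0.31. Such genes can be induced by tissue dissociation, and the part of that in these values was not tested.

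The MHC class II genes, which present antigen to helper T cells, differed between the libraries. Over the list members held 758 CPM in EAE 1 and 38.9 CPM in EAE 2, against 104 and 32.2 CPM in the others of EAE 1 and EAE 2. In EAE 1, 4 member barcodes held 920 of the 988 class II UMIs, with 126 to 299 each, and the fifth highest held 6. The 4 barcodes also carried 71 of the 172 leukocyte UMIs in members of EAE 1, at 2260 to 5827 UMIs in total. Without those 4, members of EAE 1 held 52.8 CPM over the list, below the 104 CPM of the others, from which no barcode was left out.

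Cell cycle transcripts were counted in members and in the others, a group that includes the classes the rule keeps out. With at least 2 UMIs of cell cycle genes after thinning, they were 2 of 177 in EAE 1 (1.13%, exact 95% interval 0.137 to 4.02) and 1 of 144 in EAE 2 (0.694%, 0.0176 to 3.81). The others had 61 of 1505 (4.05%, 3.11 to 5.18) and 24 of 919 (2.61%, 1.68 to 3.86). Without thinning the shares were 2.54% and 2.32% in members, against 8.50% and 6.73% in the others. The intervals cover counting error only and are no test of the difference. Birc5, needed for chromosome separation, had a UMI in 4.35% and 2.65% of members, against 4.43% and 2.89% of barcodes of none of the classes in EAE 1 and EAE 2, so these shares were close. Top2a and Birc5 were called lower against all others. Neither was called with the mean of barcodes' own CPM, after thinning, without the 5% of barcodes with most UMIs, or against barcodes of none of the classes. In that last comparison Birc5 stood at -0.42 and -0.91 on the log2 scale and Top2a at -1.85 and -0.05.

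Members are described here by bins of the sum that picked them, with no test. Eln stood at 519 and 349 CPM in EAE 1 and EAE 2 members with 3 to 5 UMIs over the 4 genes, at 664 and 289 CPM with 6 to 12, and at 2910 and 677 CPM with 13 or more. The bin of 13 or more was the highest in both libraries, the middle bin of EAE 2 was below the lowest, and the 4 members richest in Eln held 24.1% and 23.05% of its UMIs. Apod ran the other way, at 10330.5 and 15727 CPM with 3 to 5 UMIs, 3832 and 6045 CPM with 6 to 12, and 2235 and 5407 CPM with 13 or more. Epha4 was 34.6 and 40.6 CPM in the lowest bin, 45.2 and 58.5 CPM in the middle one, and 75.3 and 88.5 CPM in the highest. Depth moved with the bins as well, with medians of 3609 and 4562 UMIs in the lowest, 4377 and 5983 in the middle one, and 5101 and 6792 in the highest, and its part in these values was not tested.

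Healthy libraries held too few members to test them between states, at 6, 7 and 8. Their values rest on a handful of UMIs: C4b had 1, 1 and 7 UMIs in members of Healthy 1, Healthy 2 and Healthy 3, against which EAE members held 546 and 560. The comparison between states was therefore made in the collagen-positive barcodes that were not members, with UMIs summed per library and edgeR's quasi-likelihood test with batch as a term. It called 966 genes higher in EAE (9.6% of 10058) and 991 lower (9.85%) at a Benjamini-Hochberg adjusted p under 0.05. Depth was 5304244 to 7691775 UMIs in EAE and 989237 to 1530115 in Healthy sums.

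For the genes of the rule only values are given, because the rule took the barcodes richest in them out of this comparison. The fitted log2 fold change of EAE over Healthy was 2.78 for Lsp1, 1.78 for Npy1r, 1.46 for Dapk1 and 0.06 for Tmem150a in barcodes that were not members. Lsp1, Npy1r and Dapk1 were thus higher in EAE fibroblasts that the rule did not pick, with no overlap between the libraries' CPM values. Both EAE libraries were above all 3 Healthy ones for 2296 of 10058 genes (22.8%). The rule genes were also chosen with their levels in EAE known. Tmem150a values overlapped.

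C4b rose in the non-member fibroblasts of EAE, at 219 and 146 CPM in EAE 1 and EAE 2, against 40.4, 29.5 and 24.2 CPM in Healthy 1, Healthy 2 and Healthy 3. Its log2 fold change was 2.56 ± 0.21 (SE) with an edgeR adjusted p of 0.000126, and it passed under all 13 alternatives. In the complement list it was 1 of 5 genes that rose among 11 tested, beside 9.6% over all genes, with Cfb (3.09, adjusted p = 0.0112), which lost the call with all barcodes as deposited (adjusted p = 0.117), while Clu fell (-0.84, adjusted p = 0.0381).

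Most of the genes that marked members did not pass the test between states in non-members. Members, left out here, were 15.8% and 24.98% of collagen-positive barcodes in EAE, against 0.882% to 2.17% in Healthy libraries. Barcodes rich in these genes were thus removed mainly from EAE, so a missing rise or a fall is favoured in part by construction. With members included and no test, Hoxd10 was 17.8 and 22.3 CPM in EAE 1 and EAE 2, against 15.9, 15.5 and 8.26 CPM in Healthy libraries. Of the 15 highest, 3 rose (Sdk1, Epha7 and C4b), 2 fell (Col8a2 and Cmbl) and 10 did not pass, and of the 17 called higher 1 rose and 1 fell. These counts stand beside 9.6% and 9.85% over all genes tested. Eln was 393 and 174 CPM in EAE non-members, against 75.8, 108 and 182 CPM in Healthy ones, which gave 1.14 ± 0.51 (SE) on the log2 scale with adjusted p = 0.205 by edgeR, and the libraries overlapped. It ranged from -0.11 to 2.02 over 13 alternatives, passing without EAE 2, without Healthy 3 and with no filter on low counts.

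In non-members, by edgeR, the log2 fold change was -0.17 ± 0.21 (SE) for Mfap4 (adjusted p = 0.642), -0.08 ± 0.34 for Hoxd10 (adjusted p = 0.901), -0.68 ± 0.28 for Cxcl14 (adjusted p = 0.124) and -0.69 ± 0.32 for Igf2 (adjusted p = 0.173). For these genes a change between states was not detectable with these 5 libraries, though Igf2 passed without EAE 1, without Healthy 2 and with no filter on low counts. Sdk1 rose by 3.63 ± 0.59 (adjusted p = 0.00313), with 7 UMIs over all Healthy libraries, and lost the call with all barcodes as deposited (adjusted p = 0.0982). Epha7 rose by 1.16 ± 0.33 (adjusted p = 0.0429) and lost the call without EAE 1, without the batch term and by DESeq2, with an adjusted p of up to 0.204. Col8a2 fell by 1.48 on the log2 scale (adjusted p = 0.0209), at 24.8 and 29.6 CPM in EAE, against 48.5, 34.1 and 140 CPM in Healthy, and lost the call under 5 alternatives, among them without EAE 2, without Healthy 1 and without Healthy 3.

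Among non-members, the genes lower in members moved in both directions between states. Of the 29 called lower, 10 rose in EAE non-members, 11 fell and 8 did not pass. Apod fell, at 16769 and 22668 CPM in EAE 1 and EAE 2, against 63787, 82134 and 64417 CPM in Healthy libraries (log2 fold change -1.93 ± 0.19 SE, edgeR adjusted p = 0.000738), and members stood below both. Ccl11 (-1.67 ± 0.28, adjusted p = 0.00425), Tgfbi (-1.88 ± 0.21, adjusted p = 0.000415) and Abca8a (-2.77 ± 0.24, adjusted p = 0.000129) also fell. Ccl11 lost the call without EAE 1 and without Healthy 1, with an adjusted p of up to 0.125.

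Ccl5, a chemokine for T cells, rose by 6.86 ± 0.50 (SE, edgeR adjusted p = 8.3e-05), and Cd44, a hyaluronan receptor, by 2.95 ± 0.27 (adjusted p = 0.000168). Both lost the call with all barcodes as deposited, with adjusted p of 0.16 and 0.168. Members were below the other EAE barcodes for these genes too, at 23.8 and 13.3 CPM for Ccl5, against 77.0 and 56.7 CPM. Timp1 was 2078 and 829 CPM in EAE non-members, against 100, 23.5 and 3.92 CPM in Healthy ones, without overlap, and did not pass (5.78 ± 1.04, adjusted p = 0.0549). It passed under 5 of 13 alternatives. Saa1 did not pass either (2.11 ± 0.53, adjusted p = 0.0555), and passed under 9.

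**Figure D5:**
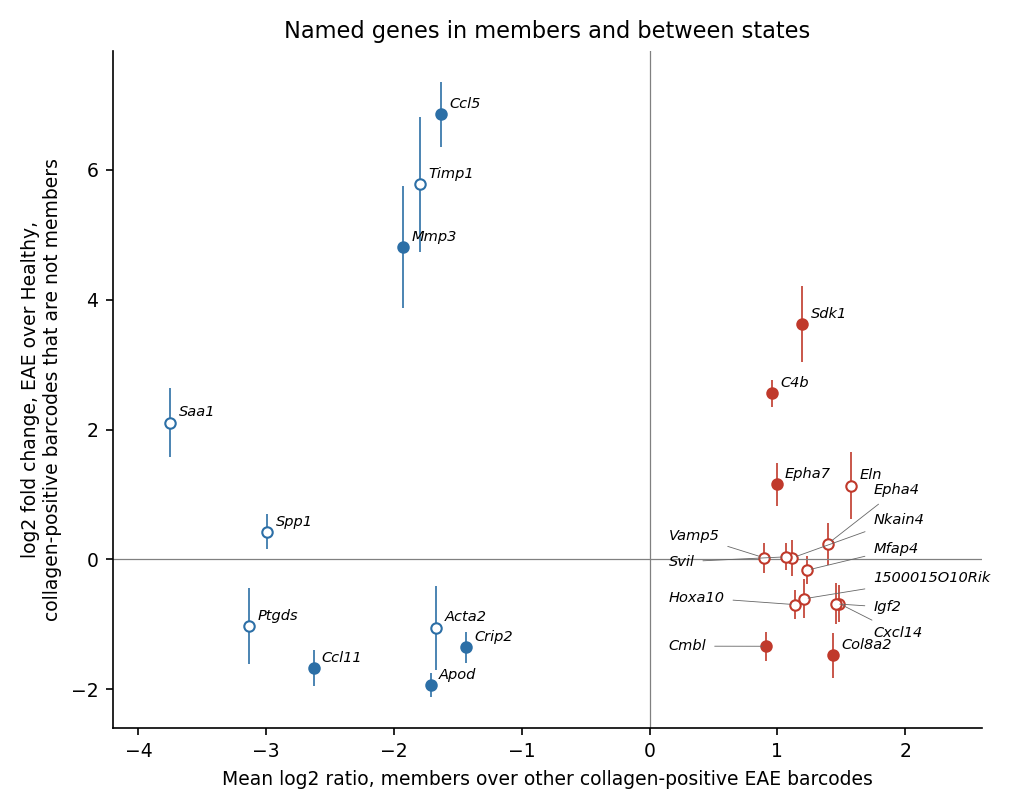
Named genes by their mean log2 ratio in members over other collagen-positive EAE barcodes (horizontal) and their log2 fold change of EAE over Healthy in non-members (vertical), with bars for the standard error. Filled points passed edgeR's test, red genes are the 15 highest in members and blue the 10 lowest. Red points spread from Col8a2 at -1.48 to Sdk1 at 3.63 on the vertical axis, and blue points spread from Apod at -1.93 to Ccl5 at 6.86.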

How the data were processed

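The deposited tables hold UMI counts per gene and barcode, not normalized, and the processing notes of the submitters name Cell Ranger 2.1.1, Seurat 3 and the mm10 build without saying which step each served. From these counts a barcode entered if it had 200 genes or more and no more than 10% of its UMIs from mitochondrial genes, and a first-batch barcode shared between tables only where its total was highest. No doublet caller was run. Level was CPM of summed UMIs, and ratios were log2 with 5 CPM added. States were tested on sums per library with edgeR 4.0.16 (quasi-likelihood test, TMM scaling, filterByExpr, robust, batch and state as terms, Benjamini-Hochberg adjustment) in R 4.3.3, and with DESeq2 1.42.0 as an alternative. No label says that libraries come from separate animals, so p-values measure only the spread between these samples. The members and gene lists were chosen with earlier results of these data known. Named genes are the rule genes, C4b, the 15 highest and 10 lowest by the weaker ratio (at least 50 CPM), and up to 3 called genes per list and direction, plus up to 2 per list that passed between states. Fbln1, Fbn1, Zic1, Clu and Abca8a were chosen after their values were seen.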

Additional observations from a re-analysis of the deposited data

How the results depend on the processing

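The difference in member share between EAE and Healthy was 18.8 percentage points, 10.97 with barcodes thinned to 2000 UMIs, and 14.2 to 23.4 leaving out each library in turn. Genes higher in members numbered 17, against 10 without the 5% heaviest barcodes and 27 to 36 with 1 EAE library alone. Genes lower numbered 29, against 49 thinned, 54 with genes of at least 5 CPM, 59 with no filter and 47 to 86 with 1 EAE library alone. Further alternatives were added after seeing the data: against barcodes of no class 14 were higher and 59 lower, without EAE 1 barcodes also seen in Healthy libraries 15 and 40, and without barcodes with cell cycle UMIs 27 and 74, where Ccl5 reversed to a log2 ratio of 0.26. The cause was not tested. Of the 17 higher genes 9 were still called without barcodes with cell cycle UMIs, and Igf2, Hoxa11, Sdk1 and Svil were among those lost. After thinning 19 genes were higher, 11 of them among the 17, and Mfap4 was among those lost. Genes higher in EAE non-members numbered 966, against 1707 with no filter on low counts, 573 with all barcodes as deposited, 596 by DESeq2, and 371 to 1615 leaving out each library: 371 without EAE 1, 585 without EAE 2, 1615 without Healthy 1 and 606 without Healthy 3. Genes lower numbered 991, against 629 by DESeq2 and 353 to 1358 leaving out each library, with 353 without EAE 1, 513 without EAE 2 and 480 without Healthy 3. For single genes 1599 values under alternatives kept their side, 189 moved, 68 lost and 39 gained a call. No paired analysis was possible because the labels of EAE and Healthy libraries share fewer than 2 replicate numbers. With 2 EAE libraries and few Healthy UMIs, small changes could not be detected.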
